A study of Mus musculus with 8 samples.

Results

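The Frizzled genes encode the cell-surface receptors that bind WNT ligands, and their transcripts were followed in whole mouse embryos at embryonic day 6.5 that were mutant for Axin1 and Axin2 or WT. The members were taken by gene symbol, Fzd1 to Fzd10, and all 10 were found among the 19950 genes of the deposited table. All 10 also passed the filter on low values, which kept 15600 genes with 10 or more in 4 or more libraries. The 4 libraries of Axin1;Axin2 mutant genotype and the 4 libraries of WT genotype were each titled as a single embryo, and each is named here by the number in its column name (1, 2, 4 or 5). The sources used here do not give strain, litter, sex or allele structures. The values are scaled counts, that is, reads per gene after division by the library's own size factor.

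A Frizzled protein spans the membrane several times and holds WNT in an extracellular cysteine-rich domain. With the co-receptors LRP5 and LRP6 it recruits Dishevelled and Axin to the membrane, which disables the complex that destroys β-catenin, and with other partners it orients cells through planar polarity signalling. Axin is the scaffold of that destruction complex, so an Axin mutation acts below the receptor. In the gastrulating mouse embryo WNT signalling is needed for the primitive streak and the mesoderm.

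The family falls into the sequence groups known for it, and the coding sequences of the GENCODE M21 models on GRCm38 showed the same grouping. Fzd1, Fzd2 and Fzd7 were 77.7% to 80.8% identical in pairs over the shorter coding sequence, Fzd5 and Fzd8 76.1%, Fzd9 and Fzd10 70.05%, Fzd4 and Fzd9 64.7%, and Fzd3 and Fzd6 62.9%. No 50-base window of any Frizzled transcript was found in another Frizzled gene, so the members are distinct at that length. Exons of Fzd5 overlapped 1233 bases of the opposite-strand gene Gm38058, and those of Fzd6 152 bases of Gm26704. The library kit does not keep strand, so reads from these stretches cannot be told apart, and Gm38058 itself was listed at 11.1 or less in every library.

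Of the 10 promoters, 6 were matched in the RefSeq table on GRCm38.p6, and those of Fzd1 and Fzd7 are shown because these close relatives had fold changes of opposite sign between genotypes, that of Fzd1 short of the threshold. Each line gives the 250 bases before the RefSeq start, 5′ to 3′ on the gene's strand, for Fzd1 at chr5:4758217-4758466 (minus strand) and for Fzd7 at chr1:59481897-59482146 (plus strand). Capitals mark the TCF/LEF core CTTTGA and the GC box GGGCGG, read on either strand, and neighbouring GC boxes share bases in Fzd7.
Fzd1: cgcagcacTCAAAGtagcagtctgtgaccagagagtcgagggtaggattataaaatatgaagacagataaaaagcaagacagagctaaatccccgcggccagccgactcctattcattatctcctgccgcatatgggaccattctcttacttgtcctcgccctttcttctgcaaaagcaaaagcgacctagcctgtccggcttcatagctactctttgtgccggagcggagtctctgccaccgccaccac
Fzd7: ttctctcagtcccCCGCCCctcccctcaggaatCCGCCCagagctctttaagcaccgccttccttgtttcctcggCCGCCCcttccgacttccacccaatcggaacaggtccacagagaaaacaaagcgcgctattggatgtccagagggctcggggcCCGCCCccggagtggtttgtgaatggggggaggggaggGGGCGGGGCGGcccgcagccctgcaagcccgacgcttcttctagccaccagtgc
The Fzd1 stretch holds 1 TCF/LEF core, which begins 242 bases before the start, and no GC box. The Fzd7 stretch holds 6 GC boxes and no TCF/LEF core. Among all 32851 promoter entries, 13.8% hold the TCF/LEF core and 32.7% the GC box in these 250 bases. Fzd1 was the 1 of the 6 Frizzled promoters with the TCF/LEF core, and 5 of the 6 held a GC box. The entry for Fzd10 starts inside the first exon of its GENCODE model and is not shown. That for Fzd9 also lies largely inside the exon of its model, and both are in these counts. The Fzd1 and Fzd7 stretches end upstream of their GENCODE model starts, at chr5:4758035 and chr1:59482424. The G and C content of the Fzd10 entry was 76.4%, like those of Fzd5 and Fzd9, against 51.2% for Fzd1 and a median of 52.4% over all entries.

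Axin1 checked the labels. It had 1721, 1985, 2203 and 2074 scaled counts in mutants 1, 2, 4 and 5, against 5274, 5140, 2963 and 4884 in WT embryos 1, 2, 4 and 5. It was lower in every mutant than in any WT embryo (log2 fold change -1.16 ± 0.18 SE, adjusted p = 0.00269 by limma). Axin2 had 370.5 ± 113 in mutants and 266 ± 32.6 in WT (SD, n = 4 each) and did not pass (limma adjusted p = 0.19), and its exons overlapped 209 bases of the opposite-strand gene Gm11670. Counts over a whole gene cannot show a deletion inside it. Reads assigned to genes ranged from 26615732 to 36778164 per library. Marker genes of epiblast, visceral endoderm and extraembryonic ectoderm were present in every library. Mutants 4 and 5 stood apart by maternal decidua markers, whose summed scaled count was 1864 to 33245 in mutants and 451 to 2123 in WT, with all 8 markers highest in one of the pair. The sum in mutant 1, at 8124, was also above every WT embryo, and Des made 7413 of it. Des, Esr1 and Pgr in mutant 1 were above every WT embryo. Cryab, Dcn, Prl3c1 and Prl8a2 in mutant 1 lay inside the WT range, and Lum was at 0. Maternal blood markers summed to 2224 to 5491 in mutants and 185 to 3359 in WT. The summed scaled count of 4 Y-linked genes was over 1000 in all 4 mutants and in WT embryos 1 and 4, against 14.2 in WT embryo 2 and 0 in WT embryo 5, so sex and genotype were not balanced.

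Some receptors differed between the genotypes: Fzd10 rose and Fzd2, Fzd7 and Fzd8 fell, while the other 6 did not pass the test. The test was limma on log2(scaled count + 1), adjusted by Benjamini-Hochberg over all 15600 genes with a threshold of 0.05, and fold changes are on that scale. In the same comparison 15.6% of all tested genes passed, 8.03% higher and 7.55% lower, against 1 higher and 3 lower of the 10 receptors. Of all calls 51.5% were higher, and 39.3% with median centring of the libraries. The median log2 fold change was -0.25 over the receptors and -0.0018 over all tested genes. The 4 receptors that passed were also the 4 whose values did not overlap between genotypes, as was true of 22.4% of tested genes, 11.2% in each direction. Among the embryos over that sum of 1000 (all mutants and WT embryos 1 and 4, called Y-linked libraries here) 6.54% of genes passed and the log2 fold changes were 3.46 for Fzd10, -1.47 for Fzd2 and -0.99 for Fzd7, all still past the threshold. The 2 embryos under it were both WT, so no comparison was possible among them. Without mutants 4 and 5, the share of all genes that passed was 9.17%, and the same 4 receptors passed.

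**Figure D1:**
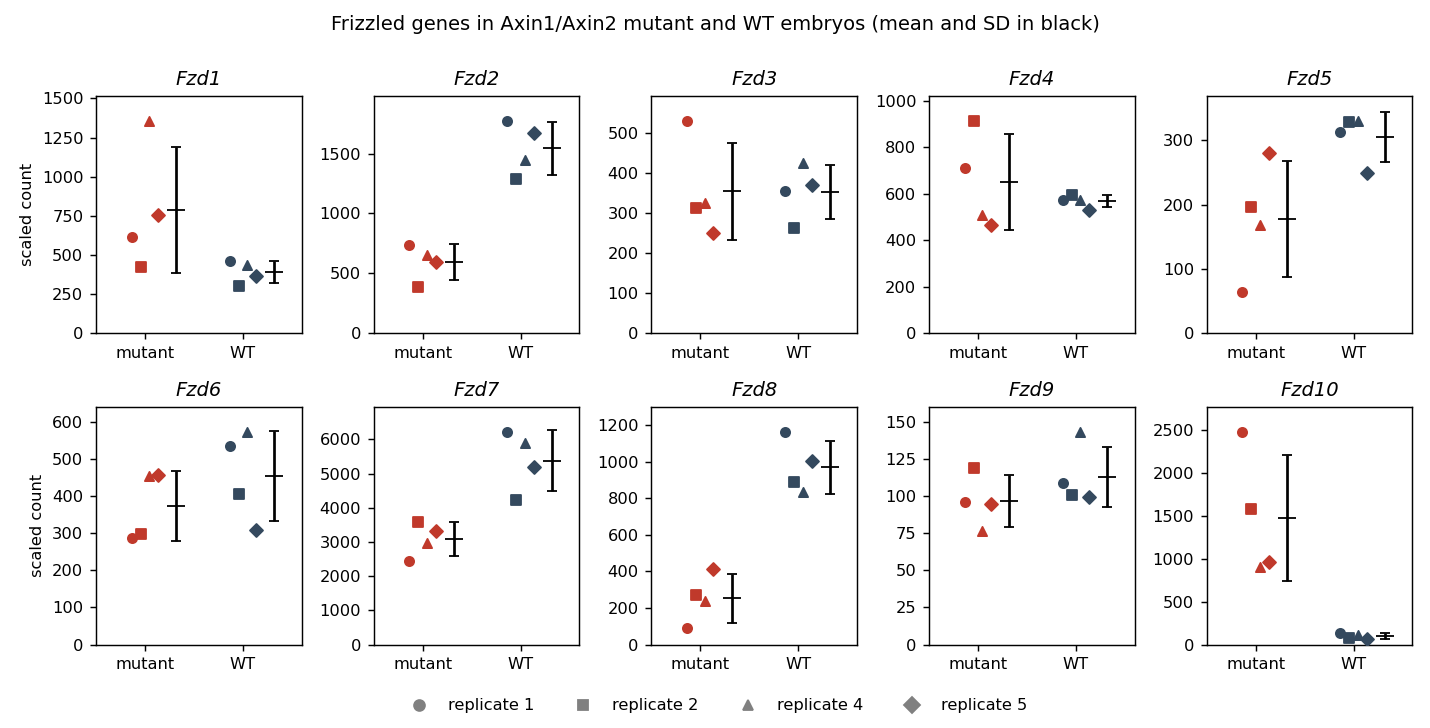
Scaled counts of the 10 Frizzled genes, 1 panel each, in the 4 mutant embryos (left) and the 4 WT embryos (right), with the mean and SD in black and the replicate number shown by the symbol. The panel of Fzd10 shows all mutants at 902 or more and all WT embryos at 136 or less, while Fzd2, Fzd7 and Fzd8 lie lower in every mutant.

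Fzd10, whose transcripts mark the primitive streak in the mouse, had 2477, 1576, 902 and 960 scaled counts in mutants 1, 2, 4 and 5, against 136, 73.9, 109 and 63.9 in WT embryos 1, 2, 4 and 5. The lowest mutant was several times the highest WT embryo, and mutant 1 was the highest of all. The gene (ENSMUSG00000081683.5, chr5:128600844-128604093, plus strand, 1 coding exon) rose 14.7-fold (log2 fold change 3.87 ± 0.35 SE, adjusted p = 0.000217 by limma). Its call held in each of the 20 alternative fits, with log2 fold changes of 3.46 to 4.42. Streak and mesoderm markers (T, Mixl1, Mesp1, Lhx1, Tbx6 and Msgn1) summed to 12215, 19162, 15354 and 21045 in mutants 1, 2, 4 and 5, against 12613, 2476, 10962 and 9656 in WT embryos 1, 2, 4 and 5. Of the 6 markers 2 rose and 1 fell (the call of each is not given here), and none was at 0 in any library. Lhx1 went the other way from the sum, with 234, 897, 805 and 1719 in mutants 1, 2, 4 and 5. In WT embryos 1, 2, 4 and 5 it had 3882, 1549, 3441 and 2900. T, the defining streak gene, had 2917, 1675, 2003 and 1913 in mutants 1, 2, 4 and 5, against 1133, 129.8, 916 and 846 in WT embryos 1, 2, 4 and 5. Mutant 1, highest in Fzd10 and in T, had the lowest sum of the mutants. Mixl1 held most of that sum in each mutant, with 8142, 15463, 10759 and 16071 in mutants 1, 2, 4 and 5. In WT embryos 1, 2, 4 and 5 Mixl1 had 6603.5, 784, 5885 and 4833. Mixl1, Lhx1, Tbx6 and Msgn1 were each lowest among the mutants in mutant 1. The part of the streak in the Fzd10 values was not tested.

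Its nearest relatives in sequence did not pass. Fzd9 had 95.9, 119, 76.3 and 94.9 in mutants 1, 2, 4 and 5, against 109, 100.4, 143 and 99.4 in WT embryos 1, 2, 4 and 5. The ranges overlapped, and the log2 fold change was -0.23 (± 0.22 SE, adjusted p = 0.542 by limma). Fzd9 has known roles in bone and hippocampus. Fzd4, the receptor for norrin in retinal vessels, had 712, 914, 510 and 464 in mutants 1, 2, 4 and 5, against 573, 597, 572 and 533 in WT embryos 1, 2, 4 and 5. Mutants 1 and 2 lay above every WT embryo and mutants 4 and 5 below every one (log2 fold change 0.14 ± 0.20 SE, adjusted p = 0.695 by limma). Its log2 fold change was 0.50 without mutants 4 and 5, the embryos richest in decidua markers (adjusted p = 0.0684 by limma). It was 0.57 with those markers as a covariate (adjusted p = 0.167 by limma). The 4 WT values of Fzd4 were close together (569 ± 26.5, SD, n = 4), against 649.97 ± 206 in mutants.

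Fzd7, a receptor known for WNT signalling in pluripotent cells, was the most abundant member in WT. It had 2435, 3572, 2979 and 3331 scaled counts in mutants 1, 2, 4 and 5, against 6208, 4221, 5905 and 5193 in WT embryos 1, 2, 4 and 5. Every mutant was below every WT embryo, and mutant 2 came closest to WT embryo 2. The gene (ENSMUSG00000041075.8, chr1:59482424-59486955, plus strand, 1 coding exon) fell 1.75-fold (log2 fold change -0.80 ± 0.15 SE, adjusted p = 0.00681 by limma). The call was lost with the decidua covariate described below for Fzd1 (log2 fold change -0.82, adjusted p = 0.0597 by limma).

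Fzd2, which acts with Fzd1 in palate closure in the mouse, fell further. It had 737, 384, 654 and 599 in mutants 1, 2, 4 and 5, against 1771, 1285, 1443 and 1670.3 in WT embryos 1, 2, 4 and 5. The highest mutant was well under the lowest WT embryo. The gene (ENSMUSG00000050288.6, chr11:102604396-102608058, plus strand, 1 coding exon) fell 2.65-fold (log2 fold change -1.41 ± 0.20 SE, adjusted p = 0.00183 by limma), and the call held in each of the 20 alternative fits.

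Epiblast markers were lower in the same mutants. The 6 listed genes (Pou5f1, Otx2, Fgf5, Sox2, Utf1 and Dnmt3b) all fell, none was at 0 in any library, and their sum was 28479 to 38208 in mutants and 112487 to 125147 in WT. In whole embryos fewer cells of a type and less RNA per cell cannot be told apart, and the part of the epiblast in the Fzd2 and Fzd7 values was not tested.

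Fzd1, the remaining member of that sequence group, had 617, 425, 1356 and 757 scaled counts in mutants 1, 2, 4 and 5, against 460, 300.3, 437 and 368 in WT embryos 1, 2, 4 and 5. Mutant 2 lay inside the WT range and the other mutants above it. The difference did not pass (log2 fold change 0.90 ± 0.32 SE, adjusted p = 0.0888 by limma). It passed with DESeq2 on the recovered reads (adjusted p = 0.0108), which called 22.1% of genes, and without mutant 2 (limma adjusted p = 0.0253), within a range of 0.0108 to 0.769 over all alternatives. The order of the mutants in Fzd1 was that of the sum of the maternal decidua markers, at 8124, 1864, 33245 and 17447 in mutants 1, 2, 4 and 5. In WT embryos 1, 2, 4 and 5 they summed to 2123, 1894, 526 and 451, an order that Fzd1 did not have there. Des held most of the sum in mutant 1, with 7413, 704, 20271 and 7958 in mutants 1, 2, 4 and 5. Dcn, Des, Esr1 and Pgr each ranked the mutants in the order of Fzd1. Cryab, Lum, Prl3c1 and Prl8a2 did not, and were lowest among the mutants in mutant 1. Of the 7 decidua markers tested 3 rose and none fell, and Lum was at 0 in 5 libraries. With the mean of these markers as a covariate, which left 6.69% of all genes past the threshold, the log2 fold change of Fzd1 was 0.22 (SE 0.33, adjusted p = 0.769 by limma). Without mutants 4 and 5 it was 0.41 (adjusted p = 0.337 by limma). As 3 of the markers rose in mutants, the covariate cannot be fully separated from genotype. The part of the decidua in the Fzd1 values was not tested.

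Fzd8, which is expressed in the anterior visceral endoderm and later the forebrain of the mouse, fell most. It had 88.3, 271, 237 and 410.3 scaled counts in mutants 1, 2, 4 and 5, against 1160, 886, 832 and 1001 in WT embryos 1, 2, 4 and 5. The highest mutant held less than any WT embryo, and mutant 1 held least. The gene (ENSMUSG00000036904.5, chr18:9212163-9218136, plus strand, 1 coding exon) fell 4.36-fold (log2 fold change -2.12 ± 0.40 SE, adjusted p = 0.00721 by limma). Among Y-linked libraries alone the call was lost (log2 fold change -2.16, adjusted p = 0.0675 by limma). With the decidua covariate it was -2.71 (adjusted p = 0.0163).

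Its closest relative Fzd5, needed for the yolk sac vessels of the mouse, had 63.6, 197, 169 and 281 in mutants 1, 2, 4 and 5, against 313, 329, 330.04 and 249 in WT embryos 1, 2, 4 and 5. Mutant 5 lay inside the WT range and the others below it. The log2 fold change was -0.95 (± 0.39 SE, adjusted p = 0.143 by limma; 0.0696 to 0.312 over all alternatives). It was -0.52 without mutant 1 and -1.50 with the decidua covariate. The value in mutant 1 rested on 59 reads, the lowest for Fzd5.

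Fzd5 and Fzd8 ranked the 4 mutants alike, from mutant 1 up through mutants 4 and 2 to mutant 5. The summed markers of the extraembryonic ectoderm had the same order, with 7959, 16581, 11040 and 19004 in mutants 1, 2, 4 and 5. In WT embryos 1, 2, 4 and 5 they were 15549, 13670, 13767 and 15434. Cdx2, which the posterior embryo also makes, was the 1 of the 6 markers that rose. Without it mutant 1 had 2972 and WT embryos 12900 to 14672, and the other 5 markers were each lowest in mutant 1. None of the 6 was at 0 in any library. Visceral endoderm markers summed to 71627 to 102202 in mutants and 82218 to 101014 in WT, with 1 of 6 lower and none higher. That list (Ttr, Afp, Amn, Apoa1, Cubn and Rhox5) was taken for the whole tissue, so the sum does not follow its anterior part. Of the 6 epiblast markers, Otx2, Fgf5 and Utf1 also ranked the mutants in the order of Fzd5 and Fzd8. These were lower in every mutant than in any WT embryo. Pou5f1, Sox2 and Dnmt3b did not have that order. Pou5f1 was highest in mutant 1, with 4254, 1748, 2795 and 2923 in mutants 1, 2, 4 and 5. Otx2 had 17.2, 247, 157 and 506 in mutants 1, 2, 4 and 5 and 3141 to 3810 in WT embryos, and Fgf5 had 73.3, 1146, 967 and 1696 in mutants 1, 2, 4 and 5 and 7028 to 7963 in WT embryos. The part of these tissues in the Fzd5 and Fzd8 values was not tested.

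**Figure D2:**
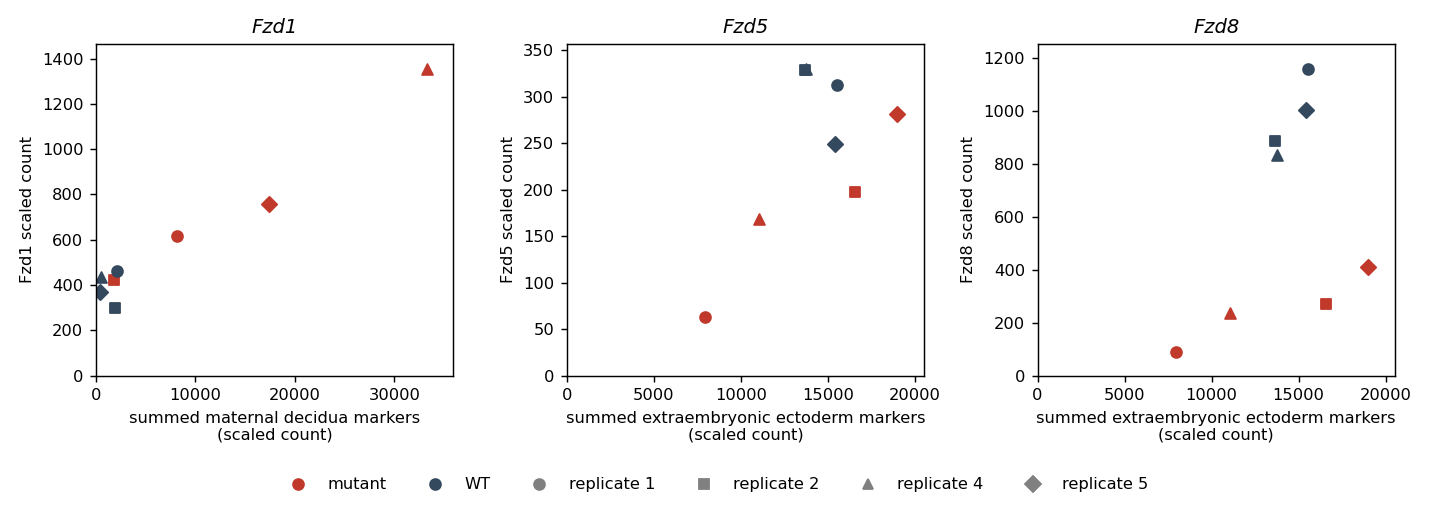
Scaled counts of Fzd1 against the summed maternal decidua markers (left), and of Fzd5 (middle) and Fzd8 (right) against the summed extraembryonic ectoderm markers, 1 point per embryo on linear axes from 0. Mutant 4 is highest on both axes of the Fzd1 panel at 1356 and 33245, and mutant 1 lowest on both axes of the other panels.

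The receptors Fzd3 and Fzd6, known for planar polarity in axon guidance and hair orientation in the mouse, did not pass. Fzd3 had 531, 313, 327 and 251 in mutants 1, 2, 4 and 5, against 355, 262, 425 and 371 in WT embryos 1, 2, 4 and 5. Mutants lay on both sides of the WT range, and the log2 fold change was -0.03 (± 0.24 SE, adjusted p = 0.959 by limma). Fzd6 had 287, 297, 455 and 457 in mutants 1, 2, 4 and 5, against 534, 407, 573 and 308 in WT embryos 1, 2, 4 and 5. Mutants 1 and 2 lay below every WT embryo and mutants 4 and 5 within their range (log2 fold change -0.28 ± 0.24 SE, adjusted p = 0.496 by limma).

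**Figure D3:**
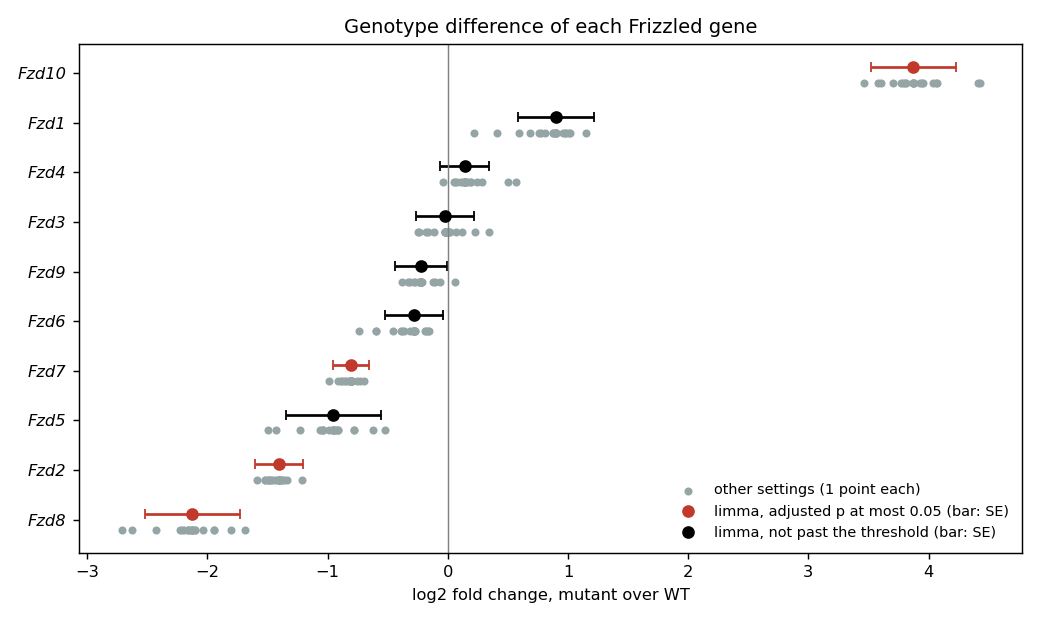
Log2 fold change, mutant over WT, of each Frizzled gene with its SE (large points, red where the limma adjusted p is at most 0.05) and under each of the 20 alternative fits (small grey points). Fzd10 stands at 3.87 and Fzd8 at -2.12, and the points of the 4 genes that passed keep their side of 0.

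Summed over the family, the receptor counts were lower in mutants. The sum was 8043, 8067, 7664 and 7606 scaled counts in mutants 1, 2, 4 and 5, against 11620.4, 8462, 10769 and 9856 in WT embryos 1, 2, 4 and 5. The mutants were close to each other (7845 ± 244, SD, n = 4) and all below the WT embryos (10177 ± 1351), and the ratio of means was 0.771. Divided by each library's total reads in place of the size factor, the ratio was 0.786 and the ranges again did not overlap. Per kilobase of exon the ranges overlapped (1709 to 1920.2 in mutants, 1810 to 2516 in WT, ratio 0.819). Without Fzd10 the sum was 6366 ± 545 in mutants and 10081 ± 1323 in WT (ratio 0.632). These sums and the shares below are given as values without a test.

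The makeup of that sum differed most in Fzd10. Fzd10 held 30.8%, 19.5%, 11.8% and 12.6% of the summed Frizzled counts in mutants 1, 2, 4 and 5, against 1.17%, 0.873%, 1.01% and 0.649% in WT embryos 1, 2, 4 and 5. Mutant 1 gave Fzd10 a slightly larger share than Fzd7, the only embryo to do so. Fzd7 held 30.3%, 44.3%, 38.9% and 43.8% in mutants 1, 2, 4 and 5, against 53.4%, 49.9%, 54.8% and 52.7% in WT embryos 1, 2, 4 and 5. It was the largest share in every other embryo, and lower in each mutant than in any WT embryo. With Fzd10 left out of the sum, the share of Fzd7 was 48.2% ± 5.40 in mutants and 53.2% ± 2.15 in WT (SD, n = 4), and the ranges overlapped.

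Fzd2 held 7.58% ± 1.95 in mutants and 15.2% ± 1.45 in WT, and Fzd8 3.24% ± 1.76 in mutants and 9.58% ± 1.25 in WT. Neither overlapped between genotypes. Fzd1 held 5.26% to 17.7% in mutants and 3.55% to 4.05% in WT, so its share did not overlap although its scaled count did. The shares of Fzd3, Fzd4, Fzd5, Fzd6 and Fzd9 overlapped. By sequence group, Fzd1, Fzd2 and Fzd7 together held 57.0% ± 8.0 in mutants and 71.7% ± 2.12 in WT. Fzd4, Fzd9 and Fzd10 held 28.1% ± 10.4 in mutants and 7.72% ± 0.972 in WT. Fzd5 and Fzd8 held 5.52% ± 2.95 in mutants and 12.6% ± 1.45 in WT. Fzd3 and Fzd6 held 9.31% ± 1.23 in mutants and 7.93% ± 0.993 in WT, and these ranges overlapped, unlike those of the other 3 groups. With Fzd10 left out of the sum, Fzd1, Fzd2 and Fzd7 held 69.96% ± 2.86 in mutants and 72.4% ± 2.14 in WT, and their ranges overlapped. On that sum Fzd3 and Fzd6 held 11.6% ± 2.25 in mutants and 8.01% ± 1.01 in WT, with no overlap. Fzd5 and Fzd8 stayed lower in every mutant, with 6.58% ± 3.17 in mutants and 12.7% ± 1.46 in WT.

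**Figure D4:**
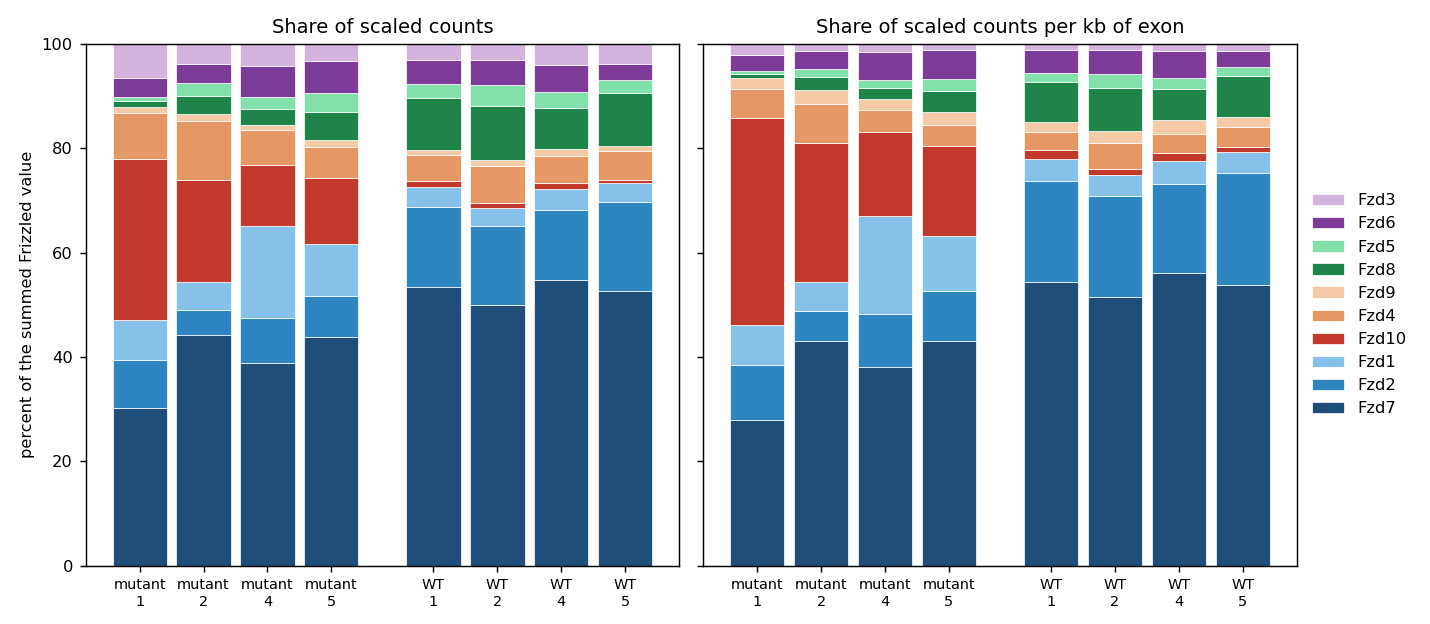
Percent of the summed Frizzled value held by each gene in each embryo, mutants left and WT embryos right within each panel, from scaled counts (left panel) and scaled counts per kilobase of exon (right panel). The red band of Fzd10 is 11.8% to 30.8% of the counts in mutants and at most 1.17% in WT embryos, and Fzd7 is the largest band in every embryo except mutant 1.

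Levels of different receptors were compared per kilobase of exon in the GENCODE M21 models, since longer transcripts give more reads. In mutants Fzd7 led with 679 ± 109 scaled counts per kilobase, followed by Fzd10 (455 ± 225), Fzd1 (188 ± 95.8), Fzd2 (162 ± 41.2), Fzd4 (96.7 ± 30.7), Fzd6 (77.6 ± 19.7), Fzd8 (42.1 ± 22.1), Fzd9 (42.1 ± 7.59), Fzd3 (27.8 ± 9.49) and Fzd5 (25.7 ± 13.0; SD, n = 4). Each of these overlapped its neighbour in the order. In WT Fzd7 led with 1188 ± 195, followed by Fzd2 (421 ± 59.9), Fzd8 (162 ± 24.3), Fzd6 (94.5 ± 25.2), Fzd1 (93.2 ± 17.2), Fzd4 (84.6 ± 3.95), Fzd9 (49.2 ± 8.93), Fzd5 (44.1 ± 5.56), Fzd10 (29.5 ± 10.2) and Fzd3 (27.6 ± 5.29). There Fzd7, Fzd2 and Fzd8 each stood clear of the next gene, Fzd4 stood clear of Fzd9, and the other neighbours overlapped. Fzd10 was 2nd of 10 in mutants and 9th of 10 in WT. Among all tested genes with a length its mean level per kilobase lay at percentile 74.0 in mutants and 28.5 in WT, while Fzd7 lay at 81.1 in mutants and 89.2 in WT.

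For each receptor that passed, the 3 tested genes with the most similar pattern over the 8 libraries were taken by Pearson's r of log2 values among 11808 genes. The genotype difference is part of every such r, so these are descriptions. For Fzd10 they were Cxcr4 (r = 0.998), a chemokine receptor of migrating mesoderm, Pycr1 (0.998), an enzyme of proline synthesis, and Exoc7 (0.995), an exocyst subunit. For Fzd8 they were Uck2 (0.996), Zic2 (0.996) and Otx2 (0.995), and Otx2, also on the epiblast list, is needed for the anterior visceral endoderm and forebrain. For Fzd2 they included Jph4 (0.988) and Nap1l2 (0.987), and for Fzd7 they were Cbx6, Cbs and Tmem231 (0.979 to 0.985).

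Among genes that work with Frizzled receptors, 7 of the 14 tested WNT ligand genes rose and none fell, while Lrp5 and Lrp6 did not pass. Over all tested genes 8.03% rose and 7.55% fell, and the same shares stand behind each list here. The median log2 fold change of the ligands was 1.28. At an unadjusted p under 0.05, and with edgeR and DESeq2, the count of ligands lower was also 0. Wnt4 had 628 ± 223 in mutants and 18.1 ± 11.2 in WT (log2 fold change 5.23 ± 0.54 SE, adjusted p = 0.000388 by limma). Wnt5b rose 5.37-fold, Wnt5a 7.52-fold and Wnt6 1.54-fold, and the Wnt6 call was lost without mutants 4 and 5 (limma adjusted p = 0.0736) and with the decidua covariate (0.126). Wnt3, the ligand that starts the streak, had 533 ± 170 in mutants and 799.99 ± 276 in WT (limma adjusted p = 0.255). The count of ligands higher was 4 without WT embryo 5, 3 without mutants 4 and 5, and 3 with the decidua covariate.

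Of 5 genes for WNT secretion, norrin and WNT removal 3 rose, and 0 fell by limma, by edgeR, by DESeq2 or at an unadjusted p under 0.05. Wls, which carries WNT to the cell surface, rose 2.28-fold and Tspan12, a partner of FZD4 in norrin signalling, 2.18-fold. Notum, a secreted enzyme that inactivates WNT, had 3105 ± 1897 in mutants and 26.1 ± 15.2 in WT (log2 fold change 6.82 ± 0.48 SE, adjusted p = 7.7e-05 by limma). That log2 fold change was 7.48 without mutants 4 and 5 and 7.91 with the decidua covariate. Notum exons overlapped 708 bases of the opposite-strand gene Notumos, which was listed at 0 to 586.04.

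Of 8 tested co-receptors and other WNT receptors 2 rose, and 0 fell by limma, by edgeR, by DESeq2 or at an unadjusted p under 0.05. In either direction 15.6% of all tested genes passed, and a count this small on so few genes is close to that background. Ror2, a WNT5A receptor, rose 1.92-fold (log2 fold change 0.94 ± 0.25 SE, adjusted p = 0.0343 by limma) and Ptk7, a planar polarity co-receptor, 1.93-fold (log2 fold change 0.95 ± 0.27 SE, adjusted p = 0.0406 by limma). Among other settings, the Ror2 call was lost without mutant 1 or 2, without WT embryo 1, 2 or 5, and among Y-linked libraries. The Ptk7 call was lost in those settings too, and without mutant 5, without WT embryo 4 and with median centring. In the settings where both were lost, 0 of the 8 were higher. Over all alternatives the limma adjusted p reached 0.157 for Ror2 and 0.26 for Ptk7. Lrp5 had 641 ± 149 in mutants and 829 ± 126 in WT (limma adjusted p = 0.186), and Lrp6 2426 ± 376 in mutants and 2574 ± 675 in WT (limma adjusted p = 0.875). With array weights the count lower was 1, as Lrp5 passed (limma adjusted p = 0.0451). Dvl1, Dvl2 and Dvl3, the Dishevelled genes, had log2 fold changes of -0.17, -0.11 and 0.19 (limma adjusted p 0.364 to 0.508), and their relative Dixdc1 rose 2.90-fold (limma adjusted p = 0.00276).

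Genes that set the turnover of Frizzled protein at the membrane moved in both directions, with 5 of 10 higher and 3 lower. Without mutants 4 and 5 the count higher was 3. The R-spondin receptor gene Lgr6 had 154, 139, 86.6 and 106 scaled counts in mutants 1, 2, 4 and 5, against 3.71, 2.84, 3.46 and 11.8 in WT embryos 1, 2, 4 and 5. Its log2 fold change of 4.40 (± 0.43 SE, adjusted p = 0.000311 by limma) was 3.64 with a pseudocount of 5 and 5.04 with the decidua covariate. The ligand gene Rspo3, whose exons overlapped 404 bases of the opposite-strand gene Gm48159, rose 2.97-fold. Rspo1 fell 3.99-fold (log2 fold change -1.99), and its log2 fold change was -2.68 with the decidua covariate. Shisa3, a relative of the Xenopus protein that retains Frizzled inside the cell, fell 5.32-fold, to 8.10 ± 4.79 in mutants, against 44.6 ± 13.2 in WT. Znrf3, a ligase that removes Frizzled from the membrane, had 909.9 ± 249 in mutants and 609.9 ± 167 in WT (limma adjusted p = 0.161). Rnf43, another such ligase, rose 2.81-fold, with 212 ± 69.2 in mutants and 79.3 ± 36.4 in WT (limma adjusted p = 0.0353). Over all alternatives the limma adjusted p of Rnf43 reached 0.149.

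Of 10 tested planar polarity genes 1 rose and 3 fell, against 8.03% higher and 7.55% lower of all tested genes. Celsr1 rose 2.12-fold, Celsr2 fell 9.62-fold to 30.6 ± 12.8 in mutants, against 296 ± 99.5 in WT, and Ankrd6 fell 2.06-fold. Celsr3 fell 3.38-fold (limma adjusted p = 0.0218), a call lost without mutant 4, without WT embryo 1, 4 or 5, among Y-linked libraries, without mutants 4 and 5, and with the decidua covariate (adjusted p 0.0514 to 0.238). Of 8 other tested genes with a Frizzled-type cysteine-rich domain or its receptor class, 0 rose and 3 fell, while the median log2 fold change was 0.22. At an unadjusted p under 0.05 the count higher was 2, and it was 1 with edgeR and 1 with DESeq2. Sfrp2, a secreted WNT binder, fell 3.17-fold, Sfrp1, another, 2.13-fold, and Col18a1, a collagen with such a domain in its long form, 1.87-fold. Without mutant 4, without any 1 WT embryo, among Y-linked libraries or with the decidua covariate, 1 of the 3 was still lower. The limma adjusted p reached 0.358 for Col18a1 and 0.171 for Sfrp1. Without mutant 1 the count higher was 2. Smo, the Hedgehog transducer of the same receptor class, had 5961 ± 1239 in mutants and 5564 ± 746 in WT (limma adjusted p = 0.736).

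**Figure D5:**
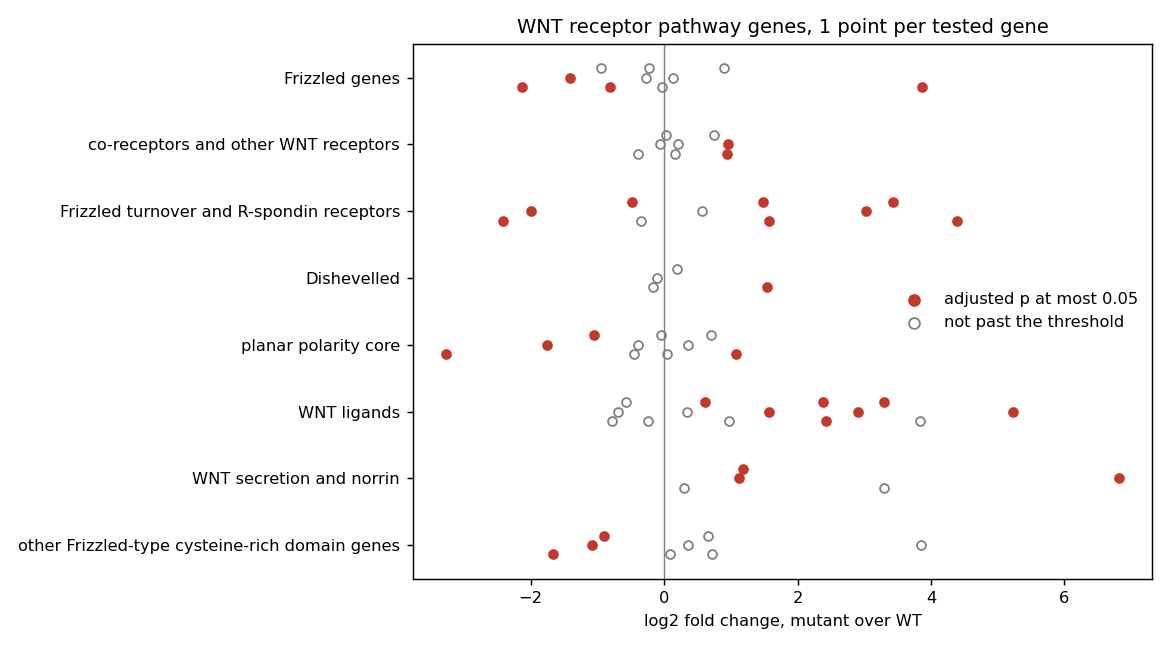
Log2 fold change, mutant over WT, of each tested gene in the Frizzled family and 7 lists of genes that work with it, filled red where the limma adjusted p is at most 0.05. Notum is farthest right at 6.82, and Celsr2 farthest left at -3.27.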

How the data were processed

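Bulk RNA sequencing was done on whole mouse embryos, 4 mutant and 4 WT. Per the labels' protocols, RNA was amplified with SMART-Seq v4, which does not keep strand, and libraries were made with KAPA Hyper Prep. The submitters' processing notes name cutadapt 1.6, STAR 2.5.0a, HTSeq 0.5.3, DESeq and the mm10 build. The sources used here give neither settings nor an annotation release. The deposited values are a signal, gene counts that the authors divided by 1 size factor per library. Every value was a whole multiple of 1 step per library (100% whole within 0.01 of a read), so reads were recovered; edgeR called 2430 genes and DESeq2 3438 on them, against 2431 with limma.

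Genotypes were compared with limma 3.58.1 in R 4.3.3 on log2(scaled count + 1), with a trended variance prior, two-sided, without a block, and Benjamini-Hochberg adjustment. Nothing says that embryos came from separate litters, and the p-values then reflect only how these embryos varied. Replicates of a genotype differed by more than sampling noise (chi-square per degree of freedom 17.3 to 75.3), so each library counted once. Depth was 26615732 to 36778164 reads per library. Reads were amplified without molecular identifiers.

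Named genes are all 10 Frizzled genes, Axin1 and Axin2, up to 4 called members, by smallest p, from each of 7 pathway lists (2 where none passed), and 3 genes nearest in pattern to each receptor that passed, of which 1 is not reported here. Lrp5, Lrp6, Dvl1 to Dvl3, Znrf3, Rnf43, Wnt3 and Smo were named after their values were seen, as was the sum without Cdx2. The members, lists and alternatives were chosen with earlier results of these data known. Gene models are those of GENCODE M21 for GRCm38, which mm10 names, matched for 19878 of 19950 IDs, and promoters are RefSeq's on GRCm38.p6. The script was tested on simulated data. Alternatives were edgeR 4.0.16 (quasi-likelihood, TMM), DESeq2 1.42.0, a pseudocount of 0.5 or 5, other filters (none, or a mean of 50 or more), median centring, array weights, a block for the replicate number, leaving out each library in turn, the 6 Y-linked libraries alone, mutants 4 and 5 left out, and the mean of the decidua markers as a covariate.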

Additional observations from a re-analysis of the deposited data

Results flagged for a closer look

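No Frizzled gene, share or sum had an embryo far from the others of its genotype; the 10 cases below are among 88 groups of 4 values examined, where chance gives about 1 in 20. Each lay farther from its nearest neighbour, relative to the group's range, than Dixon's test allows at 95%. In mutant 1, Wnt5a was 2818 (1739 to 1823 in the other mutants), Ankrd6 482 (357 to 374), Col18a1 9119 (3931 to 4609) and Axin2 539 (303 to 335). In mutant 2, Wnt6 was 1198 (1530.3 to 1594 in the other mutants) and Sfrp2 115 (225 to 247). In WT embryo 4, Ankrd6 was 954 (745 to 772 in the other WT embryos) and Axin1 2963 (4884 to 5274). Lgr6 was 11.8 in WT embryo 5 (2.84 to 3.71), and Sfrp1 4399 in WT embryo 2 (3054 to 3274).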

How the results depend on the processing

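Fzd10 and Fzd2 kept their direction and call in all 20 alternatives, Fzd8 in 19 and Fzd7 in 19. The exceptions were Fzd8 among the 6 Y-linked libraries (adjusted p = 0.0675) and Fzd7 with the decidua covariate (log2 fold change -0.82, adjusted p = 0.0597). The count of Frizzled genes higher was 1, and 2 with DESeq2 or without mutant 2, where Fzd1 passed; with 1 library left out it ranged from 1 to 2. The cause was not tested. Among genes that did not pass, Fzd3 turned to positive log2 fold changes of 0.00149 with edgeR, 0.010 with DESeq2, 0.23 without mutants 4 and 5, 0.34 with the decidua covariate and ranged from -0.24 to 0.12 with 1 library left out (above 0 without mutant 2 or 5 or WT embryo 4 or 5). Fzd4 ranged from -0.040 to 0.28 with 1 library left out and turned negative without mutant 2, and Fzd9 was 0.062 with the decidua covariate. Over all genes, 1253 were higher and 1178 lower. The 6 Y-linked libraries gave 528 and 493, leaving out mutants 4 and 5 gave 707 and 723, and the decidua covariate 558 and 485; leaving out 1 library gave 853 to 1295 higher and 734 to 1144 lower, the fewest lower without WT embryo 1 (734) or WT embryo 4 (743). Median centring gave 1029 higher and 1590 lower genes. The replicate numbers are not stated to pair embryos, and same-numbered embryos deviated with correlations of -0.19 to -0.04; with the replicate number as a block 910 genes were higher and 789 lower, and the count of Frizzled genes higher was 1 and lower 3. Under the block the Ror2 (adjusted p = 0.0657) and Ptk7 (0.0521) calls were lost, leaving 0 co-receptors higher. The ratio of summed Frizzled counts was 0.701 to 0.819 over its alternatives. Depth left at least 54 reads for every receptor in every library.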
